A study of Macaca mulatta with 24 samples.

Results

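The genes of de novo lipogenesis were followed across the omental (visceral) white adipose tissue (WAT) of female rhesus macaques. The genes were chosen by name for their roles in fatty acid synthesis, with earlier results of these data known. They were 10 symbols (ACLY, ACSS2, ACACA, ACACB, FASN, ME1, ELOVL6, SCD, MLXIPL and THRSP), and 8 of the 10 had a row among the 32386 genes of the counts table. ELOVL6 and SCD, which lengthen and desaturate the product of the pathway, matched no row and were not analysed here. Tissue from 24 animals labelled as 4 years old was sequenced, with 6 animals in each of 4 groups. The study's methods state a higher age at biopsy than these labels. The C group received control implants of cholesterol and a chow diet. The T group received testosterone implants and the same chow, the WSD group a Western-style diet with control implants, and the T + WSD group both testosterone and the Western-style diet. Treatment lasted 3 years in all groups, and the 6 animals of each group had been picked by the authors as typical of that group's body fat and insulin findings, so the spread within a group may be narrower than in the full cohort.

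De novo lipogenesis turns carbon from sugar into fatty acids in the cytosol. Citrate leaves the mitochondrion and is split by ATP citrate lyase (ACLY) to acetyl-CoA, which acetyl-CoA carboxylase converts to malonyl-CoA and fatty acid synthase (FASN) builds into palmitate with NADPH, part of which comes from malic enzyme (ME1). In adipose tissue the pathway is known to respond to insulin and to glucose, through the factors SREBP-1c and ChREBP (the product of MLXIPL), and is commonly low in obesity with insulin resistance.

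Libraries held 6899185 to 28270776 counts. In 8 of the 24 libraries, 2 in each group, the single gene ENSMMUG00000038258 took 9.92% to 54.7% of the counts, against at most 2.51% in the other 16 libraries, and these 8 are called the library batch below. The sample labels name no batch, so the term stands for this share alone, and its cause was not tested. Levels are given as CPM (counts scaled to a common library size of 1e+06) after TMM scaling, which are not corrected for gene length, so levels were compared between animals and not between genes. The adipocyte markers ADIPOQ and PLIN1 were at 315 CPM or more in every library, whereas the summed pancreas markers stayed at or below 1.32 CPM.

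One control library stood apart. C replicate 1 had the lowest level of all 24 animals for 7 of the 8 genes (ACLY was the exception), the lowest sum of 16 adipocyte markers (3414 CPM) and the highest sum of 14 mesothelial markers (40517 CPM, against 18298 CPM in the next library, T replicate 18). The mesothelial sum leaned on ITLN1, whose highest count in any library was 622935, against 30387 for MSLN, the next marker. It is therefore not an even measure of the 14 markers. LEP, the adipocyte hormone leptin, was at 4.39 CPM in C replicate 1. In bulk tissue fewer adipocytes and less RNA per adipocyte cannot be told apart. Summed mesothelial markers averaged 12579 CPM ± 13972 in C and 6462 ± 5870.4 in T, but 4148 ± 2547 in the WSD group and 1519 ± 1132 with both treatments (SD, n = 6), and summed adipocyte markers 14949 ± 6416, 19176 ± 6574, 22662 ± 6565 and 26434 ± 3813 CPM, groups in the same order. MSLN, mesothelin, averaged 527 CPM ± 606 in C and 65.9 ± 49.9 in T + WSD, and CD68, a macrophage marker, 41.5 ± 31.6 and 73.2 ± 32.4 CPM. Both sums thus moved with the groups, and the part of these markers in the results below was not tested beyond fits with a marker covariate. Each covariate was the mean over a list's markers of log2 CPM centred per marker. It is not the sum given here, and it weighs every marker equally.

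The mean of each of the 8 genes was highest in the WSD group, although none passed the test in WSD against C. By the median WSD was highest for 7 genes (ACACB was highest in T), and by the mean without WSD replicate 24 for 6. The lowest mean was in T for 5 genes, in T + WSD for 2 and in C for 1. Summed over the 8 genes, the level was 12625 CPM ± 9747 for C animals, 9139 ± 3019 for T, 24641 ± 15044 for WSD and 6804 ± 1718 for T + WSD (SD, n = 6). FASN was the largest part of this sum in each group, so the sum mainly follows FASN. In T + WSD FASN averaged 3158 CPM, with THRSP next at 1855 CPM. These parts show what weighs in the sum and do not rank the genes, since CPM is not corrected for gene length.

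**Figure D1:**
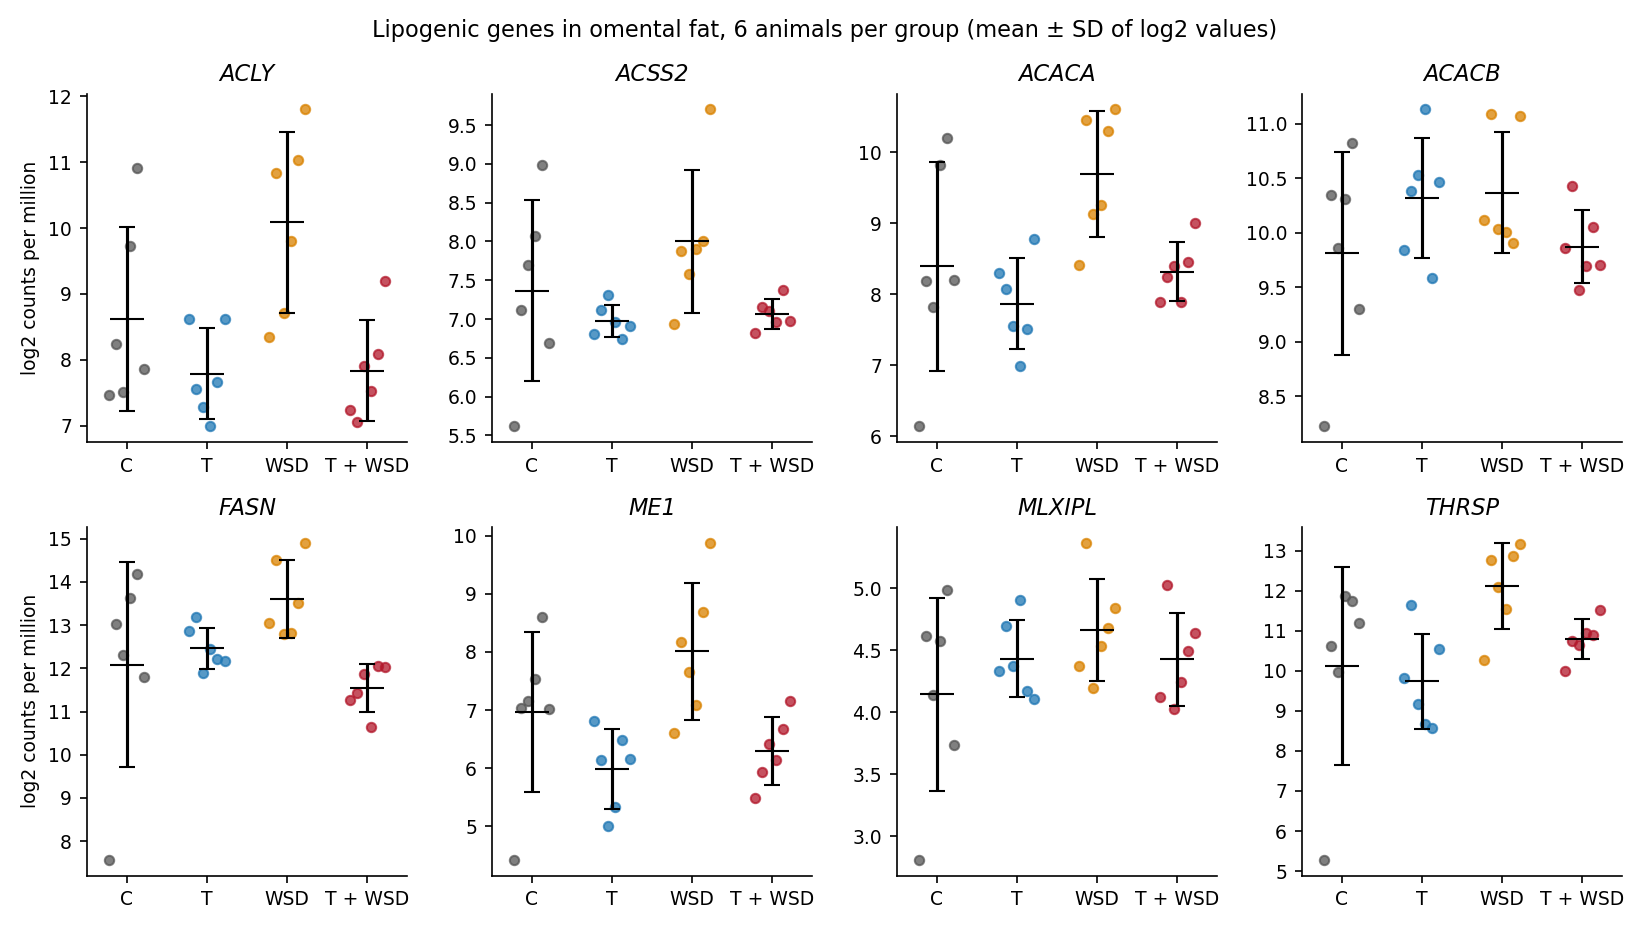
Level of each lipogenic gene in each animal as log2 CPM (y axis, a separate scale for each gene) in the C, T, WSD and T + WSD groups (x axis). Points are animals (6 per group, spread sideways for visibility) and bars are the mean ± SD of the log2 values. FASN is the gene whose T + WSD animals (1585 to 4259 CPM) all lie below the WSD animals (7081 to 30577 CPM), and C replicate 1 is the low point of the C group.

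The first step supplies acetyl-CoA. ACLY (ENSMMUG00000018931) ranged from 176 to 1924 CPM in C (median 266), from 127 to 395 in T (median 196), from 326 to 3575 in WSD (median 1359) and from 133 to 584 in T + WSD (median 212). All T and T + WSD animals stayed at or below 584 CPM, while the C group spanned a 10.9-fold range and 4 of the 6 WSD animals were above every T + WSD animal. In the fit to all 4 groups ACLY was the one lipogenic gene to pass the test in any comparison. It was 5.83-fold lower in T + WSD than in WSD (log2 fold change −2.54, SE 0.65, adjusted p = 0.0457 by edgeR's quasi-likelihood test with Benjamini-Hochberg adjustment over 15207 genes). The groups overlapped by their lowest WSD and highest T + WSD animals.

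ACSS2 (ENSMMUG00000017932), which makes acetyl-CoA from acetate, ran from 49.0 to 505 CPM in C (median 173), 107 to 159 in T (median 122), 123 to 834 in WSD (median 237) and 113 to 166 in T + WSD (median 131). The highest animal was 1.48 times the lowest in T and 1.46 times in T + WSD, against 10.3 times in C and 6.80 times in WSD. Single libraries set much of the wide ranges: they were 4.91 times in C without replicate 1 and 2.10 times in WSD without replicate 24. In T + WSD against WSD its log2 fold change was −1.22 (SE 0.42, adjusted p = 0.113 by edgeR), which did not pass the test.

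Acetyl-CoA carboxylase, the committed step, has a cytosolic form (ACACA) that feeds synthesis and a form at the mitochondrial outer membrane (ACACB) whose malonyl-CoA restrains fatty acid oxidation. ACACA (ENSMMUG00000009349) lay between 70.5 and 1184 CPM in C (median 293), 127 and 438 in T (median 229), 339.7 and 1561 in WSD (median 936) and 238 and 517 in T + WSD (median 320.0). ACACB (ENSMMUG00000022698) lay between 299 and 1812 CPM in C (median 1099.7), 766 and 2243 in T (median 1373), 960.3 and 2174 in WSD (median 1076) and 713 and 1381 in T + WSD (median 881). Groups overlapped for both genes. ACACA was 2.89-fold lower in T + WSD than in WSD (log2 fold change −1.53, SE 0.50), but its adjusted p of 0.0971 by edgeR missed the threshold of 0.05, and ACACB differed by −0.56 on the log2 scale (SE 0.34, 95% confidence interval −1.26 to 0.14).

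FASN (ENSMMUG00000012811), the synthase itself, took 0.0193% to 3.08% of all counts in a library. It ranged from 190.0 to 18560.1 CPM in C (median 6679), from 3770.3 to 9319 in T (median 5152), from 7081 to 30577 in WSD (median 10107) and from 1585 to 4259 in T + WSD (median 3227). All 6 T + WSD animals were below all 6 WSD animals, as was the case for 1.37% of all genes tested. The mean was 14708 CPM ± 9837 in WSD, against 3158 ± 1065 in T + WSD (SD, n = 6), a fitted 4.66-fold difference (log2 fold change −2.22, SE 0.61), and the adjusted p of 0.0601 by edgeR missed the threshold.

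ME1 (ENSMMUG00000012592), cytosolic malic enzyme, was found at 21.3 to 388 CPM in C (median 137), 32.0 to 112 in T (median 70.6), 97.0 to 941 in WSD (median 244) and 44.6 to 142 in T + WSD (median 77.7). Its median was lower in both testosterone-treated groups than in C, though neither difference passed the test. The groups overlapped, and the lowest animal of all was in C. Against WSD, the T + WSD level was 4.09-fold lower (log2 fold change −2.03, SE 0.54), with an adjusted p of 0.0541 by edgeR, just above the threshold.

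The 2 regulators differed in how far the groups lay apart. MLXIPL (ENSMMUG00000030377), which encodes the glucose-responsive factor ChREBP, had group means of 19.6 to 26.2 CPM and overlapping groups: 6.92 to 31.6 CPM in C (median 20.6), 17.2 to 29.9 in T (median 20.4), 18.2 to 41.2 in WSD (median 24.3) and 16.2 to 32.5 in T + WSD (median 20.7). Reads were not assigned to its alpha and beta isoforms. THRSP (ENSMMUG00000017470), or Spot 14, a lipogenic protein induced by thyroid hormone, ranged from 38.8 to 3765 CPM in C (median 1957), from 383 to 3193 in T (median 736), from 1232 to 9213 in WSD (median 5633) and from 1013 to 2926 in T + WSD (median 1811). In T + WSD against WSD the log2 fold change was −1.53 for THRSP (SE 0.67, adjusted p = 0.199 by edgeR) and −0.26 for MLXIPL (SE 0.27, adjusted p = 0.631 by edgeR), so neither passed the test.

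Adding testosterone to the Western-style diet gave the clearest contrast. Differentially expressed genes (DEGs) had to show more than a 1.5-fold difference together with an adjusted p below 0.05. In T + WSD against WSD, 1 of the 8 lipogenic genes (ACLY) was a DEG, where 0.815% of all genes were DEGs and 0.381% were DEGs with lower levels. All 8 genes had negative log2 fold changes, with a median of −1.53 against −0.03 over all genes, and 6 of the 8 had an unadjusted p under 0.05, against 20% of all genes. DESeq2, run as an alternative, called 4 of the 8 lower (ACLY, FASN, ME1 and ACACA, adjusted p = 0.00264, 0.0067, 0.0067 and 0.0392), against 2.62% of genes in either direction.

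The ACLY call lay close to the threshold, and leaving out single animals could lose it. With only the WSD and T + WSD groups in the fit, ACLY missed the threshold (adjusted p = 0.0685 by edgeR) and FASN passed it (0.0468). Leaving out 1 animal at a time kept it in 10 of 24 fits, with log2 fold changes from −2.95 to −2.09 and edgeR adjusted p from 0.0228 to 0.131. The animals without which it was lost were numbers 2 and 4 of C, 14, 15, 17 and 18 of T, 20, 23 and 24 of WSD, and 7 to 11 of T + WSD. The C and T animals enter this comparison only through the shared fit. Without C replicate 1, FASN (adjusted p = 0.0190) and ME1 (0.0333) joined ACLY (0.0373) by edgeR, while without WSD replicate 24, the animal with the highest level of 6 of the 8 genes, none passed.

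Within the library batch the differences kept their direction. In the 16 libraries outside it, T + WSD against WSD gave log2 fold changes of −2.43 for ACLY, −2.03 for FASN, −2.06 for ME1 and −1.45 for ACACA, and in the 8 libraries inside it −2.90, −2.57, −1.84 and −1.66. No lipogenic gene passed in either subset (4 and 2 animals per group). All 14 mesothelial markers had negative values in T + WSD against WSD (median −1.07), with 0 DEGs by edgeR, 8 at an unadjusted p under 0.05 and 4 called by DESeq2, and 0 of 16 adipocyte markers were called by either tool, none with an unadjusted p under 0.05. With the mesothelial markers as a covariate, ACLY was at −1.95 (adjusted p = 0.408 by edgeR) and FASN at −2.20 (0.292). With the adipocyte markers as a covariate, ACLY, FASN and ME1 passed, at −2.53, −2.62 and −2.08.

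**Figure D2:**
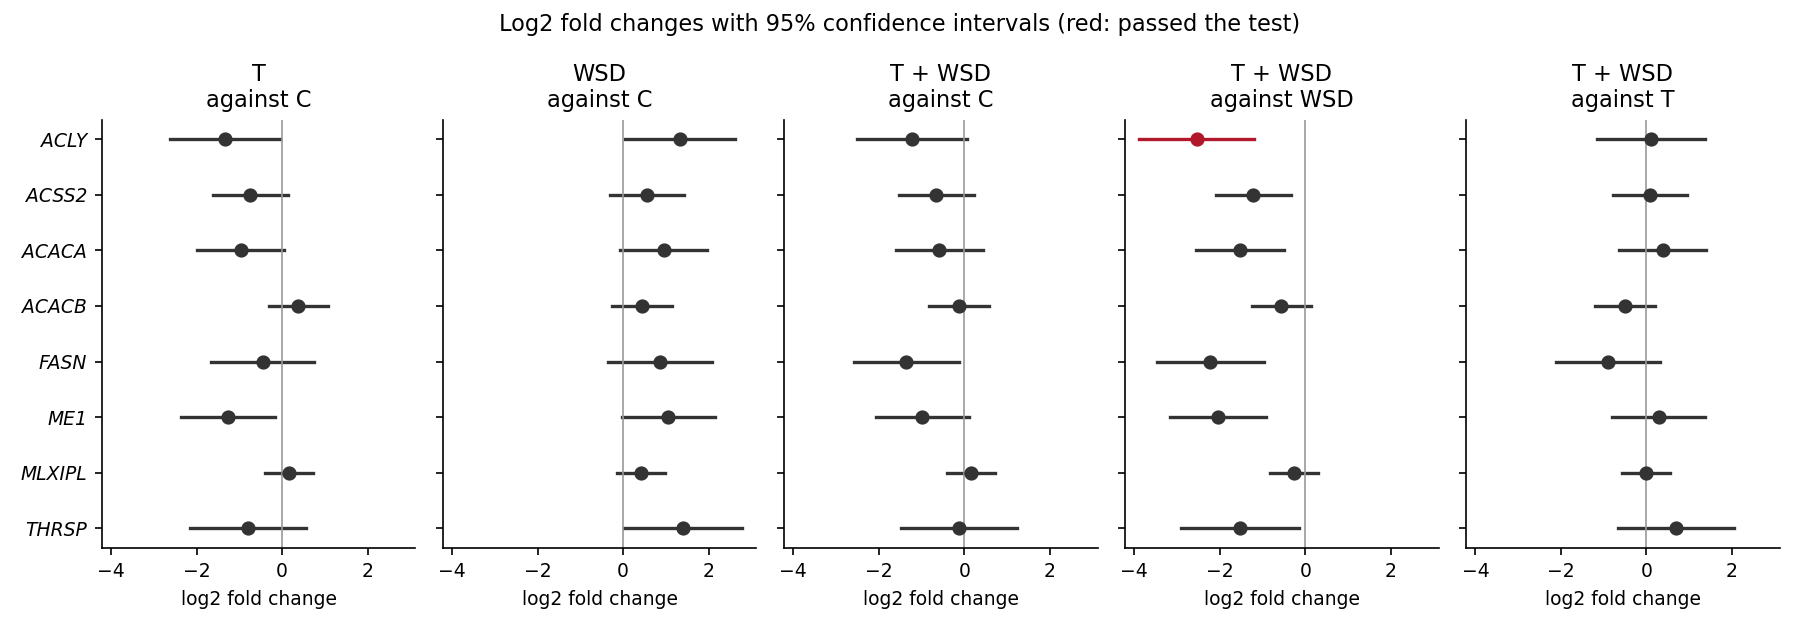
Log2 fold change (x axis, points) with its 95% confidence interval (lines) for each lipogenic gene in 5 comparisons between groups, from one edgeR fit to 24 animals. ACLY in T + WSD against WSD (−2.54) is drawn in red as the one DEG, the points of WSD against C are right of 0 for all 8 genes, and those of T + WSD against T run from −0.90 for FASN to 0.68 for THRSP.

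The Western-style diet alone raised no lipogenic gene past the threshold. In WSD against C the log2 fold changes were all positive, from 0.42 for MLXIPL to 1.41 for THRSP (SE 0.66), with a median of 0.91 against −0.02 over all genes. ACLY was at 1.32 (SE 0.62), ME1 at 1.05 (SE 0.53), ACACA at 0.95 (SE 0.49) and FASN at 0.87 (SE 0.58). The adjusted p lay between 0.259 and 0.492 (edgeR), and 0 of 8 were DEGs by edgeR and by DESeq2. In this comparison 0% of all genes were DEGs by edgeR (238 genes by DESeq2), 18.5% had an unadjusted p under 0.05, and 2 of the 8 lipogenic genes (ACLY and THRSP) did. Single animals moved these values: without WSD replicate 24, ME1 was at 0.44, FASN at 0.52 and ACSS2 at −0.02, against 0.56 for ACSS2 with all animals. Without C replicate 5, ACLY was at 2.13, and without C replicate 1 FASN was at 0.61.

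With testosterone on chow most values were negative, and none passed the test. In T against C the log2 fold change was −1.33 for ACLY (SE 0.62), −1.27 for ME1 (SE 0.53), −0.97 for ACACA (SE 0.49), −0.80 for THRSP (SE 0.66), −0.74 for ACSS2 (SE 0.42) and −0.45 for FASN (SE 0.58). ACACB (0.38, SE 0.34) and MLXIPL (0.17, SE 0.27) were on the positive side. The lowest adjusted p was 0.547 for ME1 (edgeR). Without C replicate 5 ACLY was at −0.51, and without T replicate 14 THRSP was at −1.43. The 16 libraries outside the library batch gave −1.88 for THRSP, −1.86 for ME1 and −1.09 for FASN, and the adipocyte covariate −1.40 for THRSP. By edgeR 0% of genes were DEGs and by DESeq2 7 genes were, none of them lipogenic, and 8.63% of all genes and 2 of the 8 (ACLY and ME1) had an unadjusted p under 0.05.

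Both treatments together against untreated controls gave 10% of all genes as DEGs, and none of the 8 lipogenic genes among them by edgeR or DESeq2. FASN came nearest, with a log2 fold change of −1.35 (SE 0.59, adjusted p = 0.116 by edgeR), and was the single lipogenic gene with an unadjusted p under 0.05, against 32.1% of all genes. Without C replicate 1, FASN was a DEG, at −1.59 (adjusted p = 0.0283 by edgeR). ACLY was at −1.22 (SE 0.62) and ME1 at −0.98 (SE 0.53), while THRSP (−0.12, SE 0.65) and ACACB (−0.12, SE 0.34) were at smaller values. Without C replicate 5 ACLY was at −0.41. The mesothelial covariate moved ACLY to −0.49 and MLXIPL from 0.16 to −0.43, and the adipocyte covariate moved THRSP to −1.0 and FASN to −2.03. Of 14 mesothelial markers, 10 were DEGs with lower levels in this comparison. WSD against C, T against C and T + WSD against C share the same 6 control animals.

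The diet effect in animals with testosterone was compared next. T + WSD against T gave log2 fold changes from −0.90 for FASN (SE 0.59) to 0.68 for THRSP (SE 0.66), with 5 genes above 0 and 3 below, and ACLY at 0.10 (95% confidence interval −1.17 to 1.37). None was a DEG by edgeR or DESeq2, none had an unadjusted p under 0.05 (25.9% of all genes did), and 3.77% of all genes were DEGs. The interval for ACLY includes 2-fold differences in either direction, so its levels cannot be called equal. THRSP was at 1.57 in the 16 libraries outside the library batch and at 1.30 without T replicate 14, and ACLY at 0.84 with the mesothelial covariate.

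Whether the effect of testosterone depended on the diet was tested with the interaction term, at an adjusted p under 0.1. FASN differed by −0.45 with testosterone on chow and by −2.22 on the Western-style diet, an interaction of −1.77 on the log2 scale (SE 0.83, adjusted p = 0.354 by edgeR). In the 16 libraries outside the library batch FASN was at −1.09 on chow, with an interaction of −0.93. The term was negative for all 8 genes with all animals, from −1.77 to −0.43, but turned positive for ACACA (0.03) and THRSP (0.37) in those 16 libraries and for ACSS2 (0.11) without WSD replicate 24. It was called for none by edgeR or DESeq2, where 0.809% of all genes were called. An unadjusted p under 0.05 was seen for FASN alone, against 13.5% of all genes. The testosterone effect on ACLY, at −1.33 on chow and −2.54 on the Western-style diet, was not shown to differ between diets (interaction −1.22, SE 0.87, adjusted p = 0.585 by edgeR). That term was −0.57 in the 16 libraries, −0.62 with the mesothelial covariate and −2.03 without C replicate 5, and the ME1 term went from −0.76 to −0.15 without WSD replicate 24 and the THRSP term from −0.73 to −0.10 without T replicate 14.

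The spread between animals was smaller in the testosterone groups for most of the 8 genes. The coefficient of variation across 6 animals was smaller in T + WSD than in WSD for all 8 genes, and smaller in T than in C for 7 of 8, THRSP being the exception (93.1% in T, 70.7% in C). For FASN it was 82.8% in C and 35.3% in T, and 66.9% in WSD against 33.7% in T + WSD. For ACSS2 it was 76.8% in C and 82.8% in WSD, against 13.5% in T + WSD. These spreads are a description with no test, and C replicate 1 and WSD replicate 24 contribute to the wide ones: without them FASN was at 63.2% in C and 58.4% in WSD, and ACSS2 at 64.9% and 25.9%. Without C replicate 1, ACACB was at 37.3% in C, below its 38.2% in T. The share of all genes with a smaller spread was not computed. Summed adipocyte markers also went from 29.0% in WSD to 14.4% in T + WSD. Summed mesothelial (61.4% to 74.5%) and erythroid markers (39.4% to 70.3%) went the other way. A narrower spread is thus not shown to be particular to the 8 genes.

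**Figure D3:**
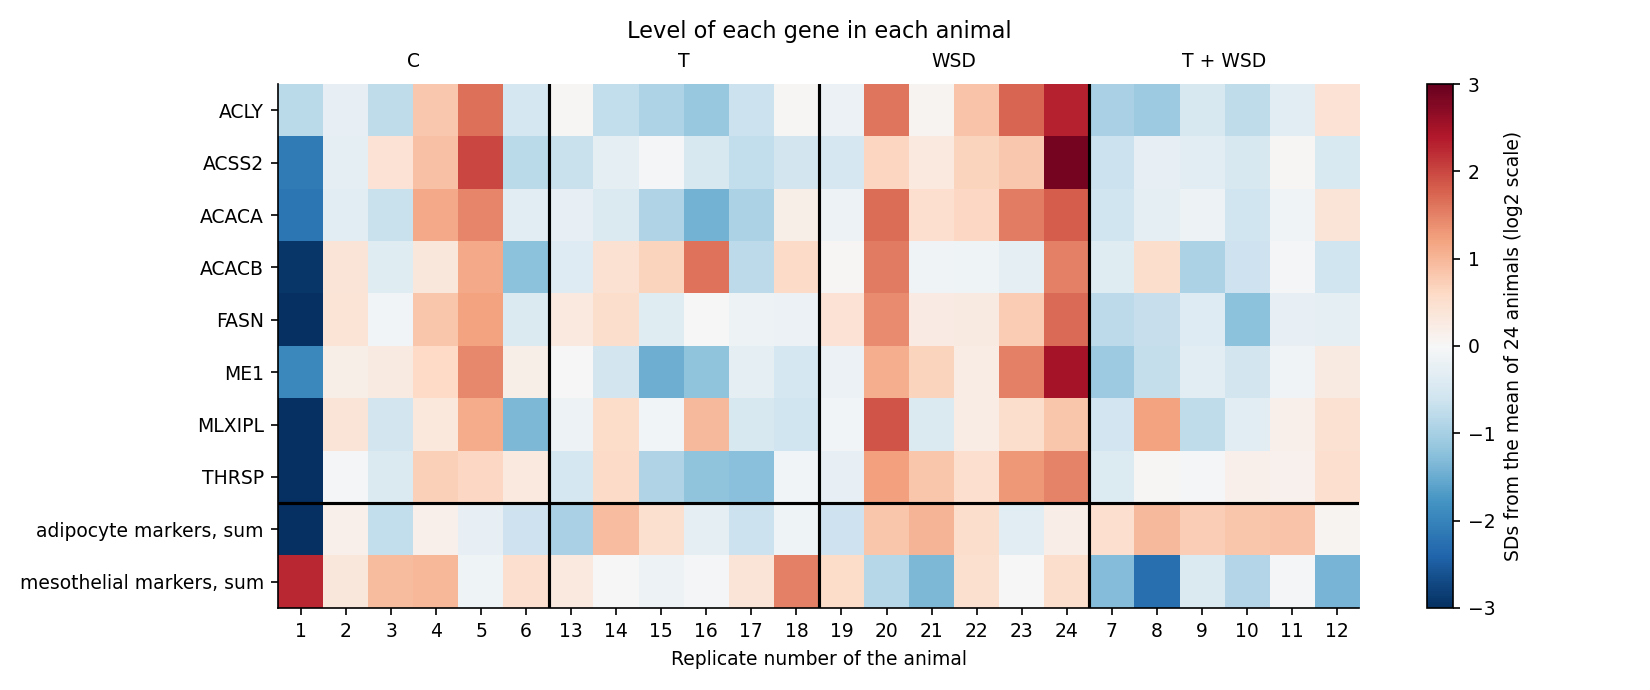
Level of each lipogenic gene and of the summed adipocyte and mesothelial markers (rows) in each animal (columns, by replicate number within the group named above), in SDs from that row's mean over 24 animals on the log2 scale. The colour scale ends at −3 and 3, and C replicate 1 goes past it for FASN (−3.34), MLXIPL (−3.17), THRSP (−3.23) and the adipocyte markers (−3.69). C replicate 1 is low and WSD replicate 24 high across most genes.

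Levels of the 8 genes varied together from animal to animal. After subtraction of group means from log2 CPM, all 28 pairs of the 8 genes correlated positively across 24 animals, with Pearson's r from 0.40 to 0.89 and a median of 0.75. By permutation within groups, 25 of 28 had an adjusted p under 0.05 for Pearson's r and 19 for Spearman's rho. The share of other gene pairs that would pass was not computed. The tightest pair was ACLY and ACACA (r = 0.89, permutation p = 1e-05, the smallest the permutations can give, adjusted p = 9.3e-05; rho = 0.91, p = 1e-05, adjusted p = 0.000187), and r was 0.85 without the 2 animals farthest from the median of ACLY. ACLY and ACACB had the lowest r over 24 animals (r = 0.40, permutation p = 0.112, adjusted p = 0.112; rho = 0.25, p = 0.297, adjusted p = 0.308), with 0.18 after the same omission. Varying together is not shown to be particular to the 8 genes. Within groups TKT and GYS1, which are outside the 8, followed their mean at r = 0.92. The 8 genes, which enter that mean, lay between 0.78 (ACLY) and 0.94 (FASN).

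These correlations leaned on C replicate 1 in part. Without it all 28 pairs stayed positive, with a median r of 0.65 and 18 pairs passing, and among the 16 libraries outside that batch the median was 0.71 with 14 pairs passing. The 8 libraries of the batch, 2 per group, were too few for a value of their own. ACACB and ME1, the pair with the lowest rho, did not pass the test (r = 0.48, permutation p = 0.0615, adjusted p = 0.0637; rho = 0.18, p = 0.443, adjusted p = 0.443; r = 0.07 without the 2 animals farthest from the median of ACACB). In the 16 libraries the lowest r was that of MLXIPL and THRSP (r = 0.27, permutation p = 0.413, adjusted p = 0.413; rho = 0.31, p = 0.314, adjusted p = 0.314).

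The balance of the 2 carboxylases was also compared, a measure chosen after the values were seen. The log2 CPM of ACACA minus that of ACACB averaged −1.41 ± 0.77 for C and −2.45 ± 0.97 for T, and −0.68 ± 0.68 for WSD and −1.55 ± 0.57 for T + WSD (SD, n = 6), so the means of the testosterone groups were lower on either diet. Only differences between groups can be read, since the genes differ in length. The difference was −1.04 for T against C (two-sided exact permutation p = 0.0671) and −0.88 for T + WSD against WSD (exact permutation p = 0.0303), and the adjusted p over the 5 comparisons was 0.122 for both, so neither passed. Among the 16 libraries outside that batch the differences were −1.66 and −0.86 (exact permutation p = 0.0571 and 0.0857, where the smallest possible is 0.0286).

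**Figure D4:**
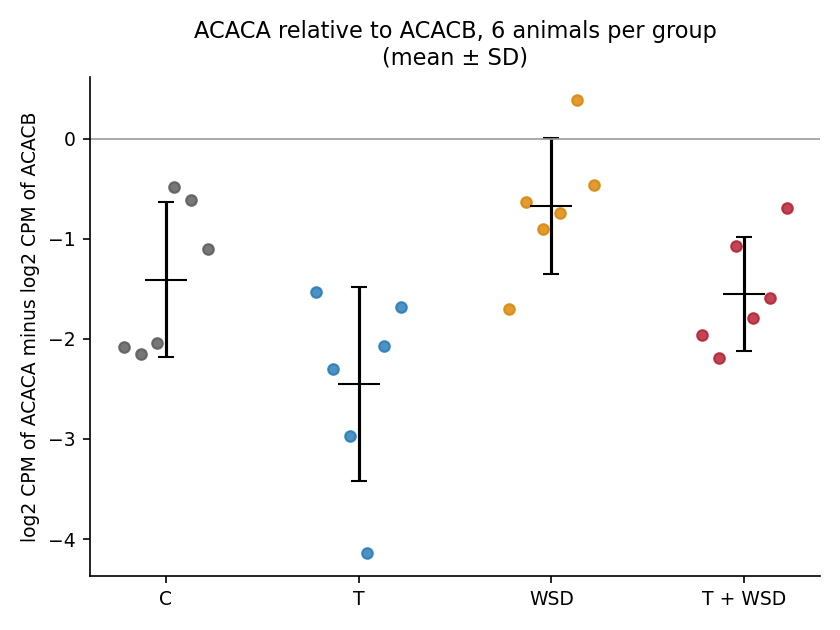
Log2 CPM of ACACA minus log2 CPM of ACACB (y axis) in each of 6 animals per group (points), with the mean ± SD (bars). The T animals average −2.45 and the WSD animals −0.68, with overlap between all groups.

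Outside the 8 genes, 95 genes in 5 lists of the surrounding pathway were tested. These lists, like the 8 genes, were chosen with earlier results of these data known, so their shares of DEGs are a description. The lists cover carbon and NADPH supply (27 genes), transcriptional control of lipogenesis (20), AMPK and related brakes (13), and glucose entry and insulin signalling (18). A further list covers other steps of chain elongation and desaturation (17), and also holds AACS, an enzyme of neither step. Of the 95, 6 were DEGs in T + WSD against WSD and all 6 were lower, a share of 6.32% against 0.815% of all genes (0.381% lower). None of the 6 was called in the 16 libraries outside the library batch or with the mesothelial covariate. Of the supply list, 4 of 27 fell, 25 of 27 had negative values and 19 had an unadjusted p under 0.05 (20% of all genes did), with a median log2 fold change of −0.63 against −0.03 over all genes.

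The genes of the supply list that fell handle mitochondrial carbon. SLC25A1, the carrier that exports citrate to ACLY, fell by 1.70 on the log2 scale (SE 0.41, adjusted p = 0.0370 by edgeR). MPC1, a subunit of the pyruvate carrier, was at −1.55 (SE 0.36), SLC25A10, the dicarboxylate carrier, at −1.08 (SE 0.27), and PDHB, a subunit of pyruvate dehydrogenase, at −0.78 (SE 0.16). The other 2 DEGs were INSIG1 (−1.73, SE 0.39), which retains SREBPs in the endoplasmic reticulum and is itself an SREBP target, and AACS (−1.93, SE 0.45), which activates acetoacetate for lipid synthesis in the cytosol. The brake list and the glucose and insulin list had 0 DEGs here by edgeR, with 4 of 13 and 6 of 18 genes at an unadjusted p under 0.05 and 0 and 1 called by DESeq2, where 20% of all genes had such a p and DESeq2 called 2.62%.

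This count depended on single animals too. It was 0 when WSD replicate 20 or 24 or T + WSD replicate 7, 8, 9 or 10 was left out, it was 1 without T + WSD replicate 11, 2 without WSD replicate 23 and 3 without T + WSD replicate 12. It was 12 without C replicate 1 or WSD replicate 19, and 15 without WSD replicate 21. DESeq2 called 13.

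**Figure D5:**
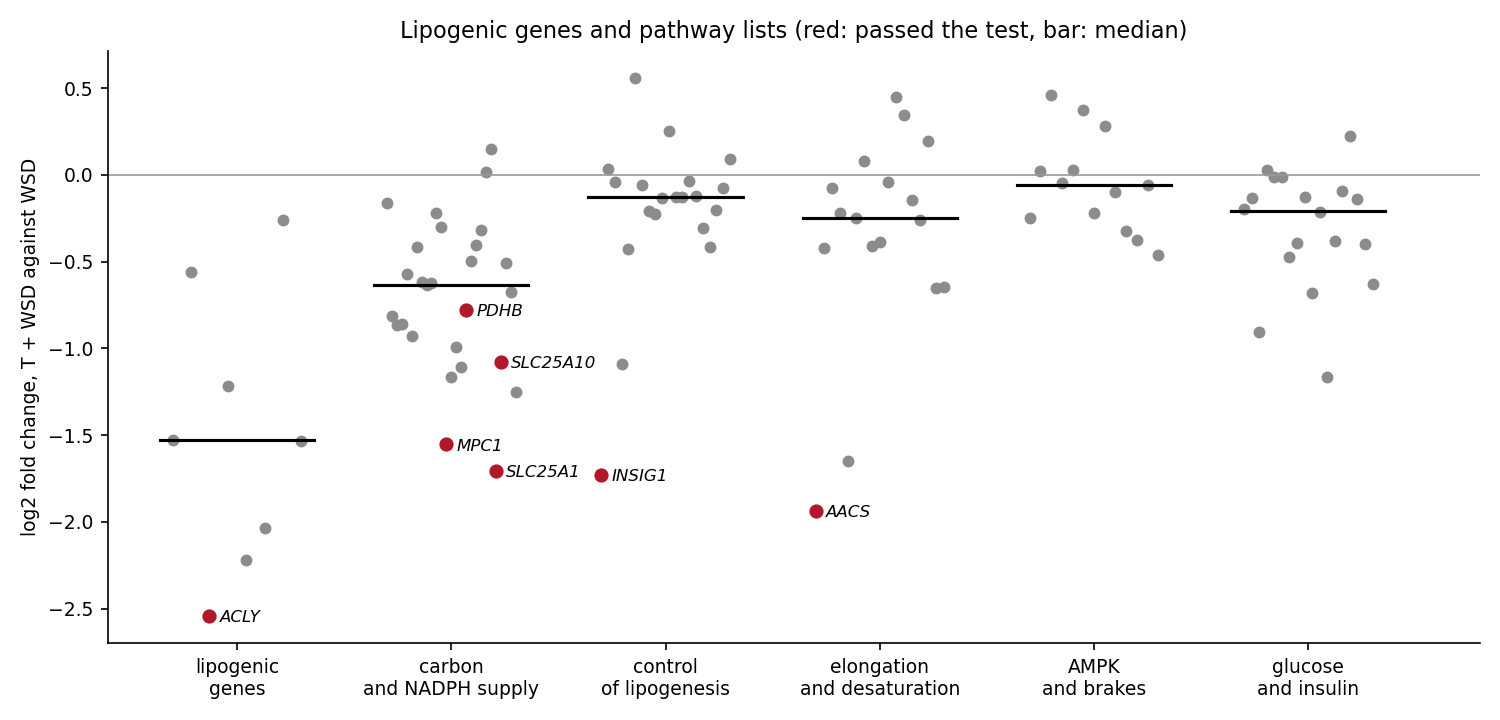
Log2 fold change in T + WSD against WSD (y axis) for each tested gene (points) of the 8 lipogenic genes and 5 pathway lists (x axis), with the median of each list as a bar. DEGs are red and named, and all lie below 0. AACS is plotted with the elongation and desaturation list but is an enzyme of neither step. The lipogenic genes have a median of −1.53 and the carbon and NADPH supply list −0.63, while the other lists have medians between −0.25 and −0.06.

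Among the factors that drive lipogenic transcription, SREBF1, which encodes SREBP-1, was not a DEG in any comparison: it averaged 87.8 CPM ± 61.8 in C and 64.3 ± 26.3 in T, against 154 ± 74.5 for WSD animals and 116 ± 40.6 under both treatments (SD, n = 6), with a log2 fold change of −0.41 (SE 0.39) in T + WSD against WSD. MID1IP1, a partner of THRSP that activates acetyl-CoA carboxylase, was at −1.09 (SE 0.47, adjusted p = 0.192 by edgeR) in the same comparison. NR1H3, which encodes the oxysterol receptor LXR alpha, an activator of SREBF1, was higher in T + WSD than in C (0.78, SE 0.25, adjusted p = 0.0324 by edgeR).

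Compared with C, the T + WSD group had 7 DEGs among the 95 pathway genes, 6 higher and 1 lower, a share of 7.37% where 10% of all genes were DEGs. With NR1H3, the higher genes were MLXIP (0.76, SE 0.17), a relative of MLXIPL, FADS3 (0.80, SE 0.18), a fatty acid desaturase family member, CAMKK2 (0.66, SE 0.15), a kinase of AMPK, PIK3R1 (0.65, SE 0.20), the regulatory subunit of PI3 kinase, and HK2 (1.07, SE 0.37), a hexokinase. PPM1K, a mitochondrial phosphatase of branched-chain amino acid breakdown, was lower (−1.30, SE 0.29). The count was 4 without C replicate 1 or T + WSD replicate 8, and 0 in the 16 libraries outside the library batch and with either marker covariate.

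Against T, the T + WSD animals had higher MLXIP (0.66, SE 0.16), FADS3 (0.68, SE 0.18), PIK3R1 (0.91, SE 0.20) and HK2 (1.39, SE 0.37) and lower IRS1 (−0.86, SE 0.20), the main insulin receptor substrate of adipocytes. These 5 are 5.26% of the 95, where 3.77% of all genes were DEGs. In the same comparison 7 of 14 mesothelial markers were DEGs with lower levels, and with the mesothelial covariate no pathway gene was a DEG. IRS1 was also the 1 pathway gene called for the interaction (−1.24, SE 0.28, adjusted p = 0.0564 by edgeR), which is 1.05% of the 95, against 0.809% of all genes. No pathway gene was called for the interaction in the 16 libraries or in 8 of the 24 fits that left out 1 animal. No pathway gene was a DEG in WSD against C or T against C by edgeR. By DESeq2, 5 were called in WSD against C, where 1.58% of all genes were, and 0 in T against C, where 0.029% of all genes were. Of the 5, 3 were supply genes with higher levels. The brake list and the elongation and desaturation list each had 1 gene with a lower level.

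Other tested genes with a symbol were ranked by how closely they followed the mean standardised log2 CPM of the 8 lipogenic genes. Over 24 animals the closest were TKT (r = 0.93), GYS1 (0.93), PCYT2 (0.91), DLAT (0.91) and HSD17B12 (0.91). TKT is transketolase of the pentose phosphate pathway, GYS1 the glycogen synthase of muscle and fat, PCYT2 an enzyme of phosphatidylethanolamine synthesis, DLAT a subunit of pyruvate dehydrogenase, and HSD17B12 a reductase of fatty acid elongation. GYS1 showed the narrow spread of ACSS2 in testosterone groups, at 70.4 to 94.4 CPM in T and 73.4 to 88.8 in T + WSD against 69.6 to 287 in WSD and 22.8 to 120.2 in C. These correlations are a description across animals that share group and library batch, and carry no test. They include C replicate 1 and were not computed without it.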

How the data were processed

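RNA from omental WAT of 24 animals was measured by RNA-seq. Per the labels and the study's methods, ribosomal RNA was removed before single-read sequencing, and the authors checked reads with FastQC 0.11.5, trimmed them with Trimmomatic 0.36, aligned them to rheMac8 with STAR 2.5.2b and deposited raw read counts per Ensembl gene. The counting tool and its strand setting are not given in the sources used here, so reads of overlapping antisense genes cannot be told apart.

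Symbols came from a gene name table and, for 222 genes, from identifiers paired with names in the study's supplementary tables (17843 of 32386 genes named). The deposited counts carry no coordinates, and no genome of their build was used, so positions and sequences are not given. Of 32386 genes, 7255 had no counts and 15207 passed filterByExpr (minimum count 10, total 15). One fit to the 4 groups used edgeR 4.0.16 (glmQLFit and glmQLFTest, robust, legacy dispersion, TMM) with Benjamini-Hochberg adjustment, in R 4.3.3, and was tested on simulated counts. DESeq2 1.42.0 was an alternative. Correlations used log2 CPM with a prior count of 2 and 100000 permutations within groups (28 pairs). Other alternatives covered scaling, filters, thresholds, the library batch, mean marker levels (centred log2 CPM) as covariates and each animal left out.

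Named genes were all 8 lipogenic genes, up to 5 DEGs per pathway list and comparison, SREBF1, NR1H3, SLC25A1, MID1IP1 and the marker genes given. The 5 other tested genes with a symbol that were most like the lipogenic mean were also named. The genes and lists were chosen with earlier results of these data known. The replicates are separate animals. Library totals set the depth, and each lipogenic gene had at least 115 counts in every library, so counting error was small beside the spread between animals.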

Additional observations from a re-analysis of the deposited data

Results flagged for a closer look

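Of 32 sets of 6 values (8 genes in 4 groups), 3 had a sample far from the other 5 by Dixon's test (critical value 0.625). Chance flags about 1 in 20 such sets if values are normally distributed. The test was run on CPM, where high values stretch further than on the log2 scale, so this rate may not hold. No value of C replicate 1 was flagged on this scale. ACLY in T + WSD replicate 12 was at 584 CPM, with the next animal at 273 CPM. ACSS2 and ME1 in WSD replicate 24 were at 834 and 941 CPM, with the next animals at 258 and 410.2 CPM. The same animal had the highest FASN, ACACA, ACLY and THRSP of all 24. Leaving out WSD replicate 24 moved T + WSD against WSD from −1.22 to −0.64 for ACSS2, from −2.03 to −1.42 for ME1 and from −2.54 to −2.09 for ACLY on the log2 scale (edgeR adjusted p = 0.395, 0.172 and 0.131), and leaving out T + WSD replicate 12 moved ACLY to −2.95. The cause was not tested.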

How the results depend on the processing

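Over all alternatives, 1749 of 1816 values of a single lipogenic gene kept their direction and side of the threshold, 20 fell below it, 15 passed it and 32 changed sign, none of them while a DEG. Alternatives that changed only a threshold reused the main fit, so no sign could change there. A value that never passed counts as kept however far it moved. ACLY in T against C, for example, went from −1.33 to −0.51 without C replicate 5. The number of lipogenic DEGs in T + WSD against WSD (1) was 4 by DESeq2, 2 with legacy=FALSE and 3 with the adipocyte covariate. It was 0 with upper-quartile scaling, with no filter, in the 16 or 8 libraries, and with the mesothelial covariate. It was 1 with only the groups compared, but FASN in place of ACLY. Leaving out single animals gave 0 to 3 there and 0 to 1 in T + WSD against C. Pathway DEGs in T + WSD against WSD (6) were 13 by DESeq2, 1 with no filter and 19 with the adipocyte covariate. They were 0 with only the groups compared, in the 16 or 8 libraries, and with the mesothelial covariate. In T + WSD against C (7) they were 0 in the 16 libraries and with either covariate, and 2 at a fold change over 2. In T + WSD against T (5) they were 3 in the 16 libraries, 0 with the mesothelial covariate and 1 at a fold change over 2. In WSD against C they were 5 by DESeq2. For the interaction (1) they were 5 by DESeq2, 0 in the 16 libraries, 3 with the mesothelial covariate and 0 at an adjusted p under 0.05. Without single animals these counts ran 0 to 15 (T + WSD against WSD), 4 to 7 (against C), 2 to 6 (against T), 0 to 3 (WSD against C, 3 without WSD replicate 19) and 0 to 4 (interaction). Against T the count was 2 without T replicate 13 or 18 or T + WSD replicate 8, and 3 without T replicate 16 or 17 or T + WSD replicate 9 or 10. The interaction count was 0 without C replicate 3 or 6, T replicate 15, WSD replicate 20 or 24 or T + WSD replicate 7, 9 or 10, and 4 without WSD replicate 21. Passing correlations (25) were 14 in the 16 libraries and 18 without C replicate 1.

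None of the sign changes was in a value that passed the test, though the main values reached −0.73 (THRSP interaction) and 0.56 (ACSS2, WSD against C). MLXIPL in T + WSD against T (−0.0047) was 0.0205 by DESeq2, 0.0178 with RLE, 0.0317 with upper-quartile scaling, 0.0146 with 10 counts in every animal, 0.015 with only the groups compared and 0.0026 with legacy=FALSE. MLXIPL in T against C was −0.0006 in the 16 libraries and −0.054 with the adipocyte covariate. In T + WSD against C it was −0.0458 in the 16 libraries, −0.435 with the mesothelial and −0.261 with the adipocyte covariate. ACLY in T + WSD against T was −0.0738 with the batch as a covariate, and ACSS2 −0.0935 with the adipocyte covariate. The interactions of ACACA and THRSP were 0.0309 and 0.374 in the 16 libraries. Without single animals, ranges that crossed 0 were −0.122 to 0.104 (MLXIPL) and −0.311 to 0.290 (ACLY) in T + WSD against T, −0.0064 to 0.362 (MLXIPL, T against C), −0.295 to 0.111 (ACACB) and −0.361 to 0.149 (THRSP) in T + WSD against C, and for ACSS2 −0.0205 to 1.03 (WSD against C) and −0.942 to 0.107 (interaction). The cause was not tested.

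The fit with only the groups compared does not apply to the interaction. No paired analysis was possible because the groups share no replicate number. Each lipogenic gene had at least 115 counts in every library. The FASN range in C was 97.7-fold, and 5.20-fold without C replicate 1.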
